A study of Mus musculus with 9 samples.

Results

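Jmjd7, Pla2g4b and Sptbn5 are neighbouring genes on mouse chromosome 2, and they were followed here together with Tyro3, Mga, Mapkbp1, Ehd4 and Tmem87a, which lie on either side of them. The locus was chosen from the measured difference of Jmjd7, Pla2g4b and Sptbn5 between Clic1 KO and WT libraries, and the other genes for their position. All 8 genes were among the 14351 genes of the deposited table. Because this contrast chose the members, their values and fold changes are given as a description, with no test.

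RNA of the hypothalamus was sequenced in 5 Clic1 KO and 4 WT libraries of male mice (KO replicates 2, 4, 6, 8 and 10 and WT replicates 1, 3, 9 and 11). The study describes a whole-body deletion of Clic1, which encodes a chloride intracellular channel protein, on a CD-1 background, with WT littermates and normal chow for both groups. The labels instead name the strain C57b/6J and a fat tissue in the treatment protocol, and the age of these mice is not given in the sources used here. Replicate 10 is called WT by its title and treatment label, whereas its library name starts with K like those of the KO libraries, and it was placed with the KO mice for that reason.

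Jmjd7 encodes a JmjC-domain oxygenase that hydroxylates a lysine of the DRG GTPases, proteins bound to translation. Pla2g4b encodes cytosolic phospholipase A2 beta, a member of the family that releases fatty acids such as arachidonic acid from membrane phospholipids. Sptbn5 encodes beta-V spectrin, a very large relative of the spectrins that line the inner face of the plasma membrane. Jmjd7 and Pla2g4b lie head to tail and are also joined in read-through transcripts, which the annotation lists as a separate gene, Gm28042.

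The positions that follow are those of GENCODE mouse release 21, on chromosome 2 of GRCm38, to which the reads had been aligned. Jmjd7 (ENSMUSG00000098789) runs on the plus strand from 120027483 to 120032594, and Pla2g4b (ENSMUSG00000098488) on the same strand from 120033417 to 120043030. Gm28042 (ENSMUSG00000033852) spans both, from 120027493 to 120043033. Sptbn5 (ENSMUSG00000074899) lies on the minus strand from 120041493 to 120085693, so its 3' end runs into the 3' ends of Pla2g4b and Gm28042. Release 21 types Sptbn5 as a processed transcript and the other 3 genes as protein-coding. Upstream of Jmjd7 on the plus strand, Mapkbp1 ends 74 bases before its start, after Mga and Tyro3. On the minus strand, Ehd4 follows 3481 bases beyond Sptbn5, and Tmem87a lies from 120355312 to 120404113.

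The exons of these genes overlap to a degree that bears on each value below. Of the 1960 exonic bases of Jmjd7, 1307 are also exonic in Gm28042, and of the 5831 of Pla2g4b, 3878 are. Among all stretches of 50 bases in the transcripts of Gm28042, 96.4% occur in other genes on the same strand, and only 190 of 5330 are its own. For Jmjd7 60.9% and for Pla2g4b 64.2% of such stretches are shared. Sptbn5 shares 0.0607% of its stretches with a gene on its own strand. Counting both strands, the share is 6.53%, mostly from an exon of 792 bases that lies wholly within the last exon of Pla2g4b, on the opposite strand. Whether reads were counted by strand is not given in the sources used here, so reads in those 792 bases cannot be told apart by gene.

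**Figure D1:**
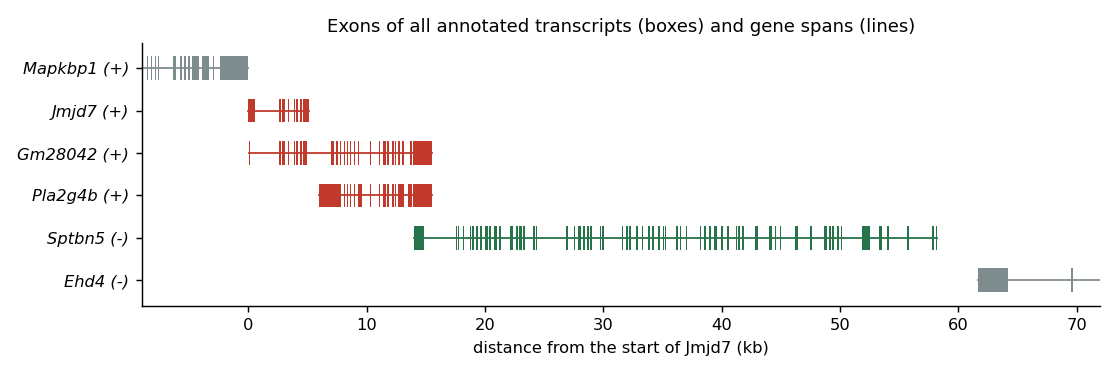
Exons (boxes) and spans (lines) of 6 genes, drawn by distance in kb from the start of Jmjd7, with the strand beside each name; Mapkbp1 and Ehd4 run past the edges. Gm28042 shares exons with Jmjd7 and with Pla2g4b, and the 3' end of Sptbn5 lies across the 3' ends of Pla2g4b and Gm28042.

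What sets Gm28042 apart is its splicing from one gene into the next. In the release 21 transcripts, introns that lead from inside Jmjd7 into Pla2g4b begin at 2 positions, and 1 intron is given for each. Any further intron with the same start but another end was not listed. Neither of the 2 joined sequences occurs in a transcript of Jmjd7 or Pla2g4b alone. Each is shown from 15 bases before to 15 bases after the junction, with the exon on the Pla2g4b side in capitals. The first intron is chr2:120031652-120034597 and the second is chr2:120032466-120034477, both on the plus strand of GRCm38.
Gm28042 junction 1: gaagccatggagaagGCAAAGGTGCCAGAG
Gm28042 junction 2: gtgctatgaccttggGTGGACCTGGTCCTT

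The sequence ahead of the genes differs as well. RefSeq (GRCm38.p6) gives promoter sequences for 7 of the 8 members and for Gm28042, whose window is identical to that of Jmjd7; Pla2g4b had no entry. The 74 bases between the end of Mapkbp1 and the start of Jmjd7 (chr2:120027409-120027482, plus strand) and the 250 bases before the RefSeq start of Sptbn5 (chr2:120088914-120089163, minus strand) are shown. They were chosen because Jmjd7 and Gm28042 share the first, and Sptbn5, with the opposite difference, has the second. The Sptbn5 window lies upstream of the GENCODE 5' end of the gene at 120085693 and does not adjoin the span given above. Capitals mark the GC box GGGCGG, the CCAAT box CCAAT and the TATA box TATAAA, searched on both strands.
Jmjd7: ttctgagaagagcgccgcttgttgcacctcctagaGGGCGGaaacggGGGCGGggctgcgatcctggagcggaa
Sptbn5: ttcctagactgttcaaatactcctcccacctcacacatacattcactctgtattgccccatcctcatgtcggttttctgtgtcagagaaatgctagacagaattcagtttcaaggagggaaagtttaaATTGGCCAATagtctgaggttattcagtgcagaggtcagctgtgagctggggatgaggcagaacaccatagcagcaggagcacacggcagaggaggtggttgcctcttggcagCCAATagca

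The Jmjd7 stretch has 2 GC boxes and 7 CpG dinucleotides. Over the full 250 bases before its start, Jmjd7 has 13 CpG, against a median of 6 over 32851 promoters, and 2 further matches to the TATA box that lie inside Mapkbp1. The window before the RefSeq start of Sptbn5 has 2 CpG and 3 matches to the CCAAT box, of which 2 lie side by side on opposite strands. A GC box occurs in 32.7%, a CCAAT box in 33.8% and a TATA box in 12.4% of all promoter windows of 250 bases. A match describes these letters alone and is not a binding site.

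The steps between the lowest values gave estimated totals of 5.45 to 20.8 M reads per KO library and 7.28 to 11 M per WT library, the largest being that of KO replicate 10. This library also stood apart from the rest, with a median Spearman correlation of 0.974 to the others, against 0.989 for the lowest pair among the other 8. Clic1, the targeted gene, had 0.733 to 1.93 CPM (counts scaled to library size) in the KO libraries, replicate 10 included at 1.43, and 3.58 to 5.52 CPM in the WT libraries. All 13 hypothalamic markers were measured, with sums of 769 to 946 CPM over the KO group and 684 to 744 CPM over the WT group. Only 1 of the 13, Avp, had an adjusted p under 0.05 in limma (adjusted p = 0.0027). Avp averaged 207 CPM over KO and 111 CPM over WT libraries, and these values are part of the sums. How much the other markers added to the difference between these sums was not tested, so it cannot be read as a difference of the whole list. Of 6 adipose markers only Lipe was in the table. The 6 endothelial markers summed to 189 to 213 CPM for KO, against 174 to 181 CPM for WT. The sums of the other 10 marker lists overlapped between the groups. The part of these markers in the results below was not tested, and in bulk tissue fewer cells of a type and less RNA per cell cannot be told apart.

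Jmjd7 was lower in every KO library than in any WT library. Its normalized expression was 0, 0.923, 0.306, 0.252 and 0.567 CPM in KO replicates 2, 4, 6, 8 and 10. In WT replicates 1, 3, 9 and 11 it was 2.44, 2.13, 2.18 and 1.79 CPM. The highest KO library, replicate 4, thus stayed below the lowest WT library, replicate 11. KO libraries averaged 0.409 ± 0.351 CPM (SD, n = 5) and WT libraries 2.13 ± 0.268 CPM (SD, n = 4), or 5.21 times as much. The log2 difference was -2.49 (standard error 0.57) on the log2(CPM + 0.1) scale. For a gene this low its size depends on the added constant, and it was -3.32 with 0.01 and -1.18 with 1. Jmjd7 and Gm28042 reached 1 CPM in the 4 WT libraries and in no KO library, and Pla2g4b also in 1 KO library. The table's filter counts values of at least 1 CPM. Among these libraries theirs came almost entirely from the WT group, where these genes are high. The values of Jmjd7 rest on few reads, an estimated 0 to 11.5 reads per KO library and 13 to 26.9 per WT library.

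Gm28042, the read-through gene, was also lower in every KO library than in any WT library. KO replicates 2, 4, 6, 8 and 10 had 0.129, 0, 0.524, 0.862 and 0.195 CPM. WT replicates 1, 3, 9 and 11 had 4.94, 3.15, 2.84 and 3.78 CPM, so the groups were well separated. KO libraries averaged 0.342 ± 0.349 CPM (SD, n = 5) and WT libraries 3.68 ± 0.926 CPM (SD, n = 4), a ratio of 10.8 of WT to KO. The log2 difference was -3.48 (standard error 0.57). It rests on an estimated 0 to 5.5 reads per KO library, so its size cannot be ranked against that of Jmjd7.

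Pla2g4b had the same direction with a wider spread among WT mice. It was at 0.824, 1.4, 0.696, 0.566 and 0.256 CPM in KO replicates 2, 4, 6, 8 and 10, and at 4.74, 2.03, 2.44 and 5.1 CPM in WT replicates 1, 3, 9 and 11. WT replicates 1 and 11 had more than WT replicates 3 and 9, and all 4 lay above the highest KO library, replicate 4. The means were 0.748 ± 0.421 CPM (SD, n = 5) and 3.58 ± 1.57 CPM (SD, n = 4), with a log2 difference of -2.16 (standard error 0.42).

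Because RSEM divides shared reads between overlapping genes, sums depend less on how the reads were divided. Jmjd7 and Pla2g4b together were at 0.824, 2.32, 1, 0.818 and 0.823 CPM in KO replicates 2, 4, 6, 8 and 10, and at 7.18, 4.16, 4.62 and 6.89 CPM in WT replicates 1, 3, 9 and 11. The log2 difference of this sum was -2.29 (standard error 0.35 from the spread within groups). With Gm28042 added, KO libraries had 0.953, 2.32, 1.53, 1.68 and 1.02 CPM and WT libraries 12.1, 7.31, 7.46 and 10.7 CPM, in the same order. The means of this sum were 1.5 ± 0.557 CPM (SD, n = 5) and 9.39 ± 2.39 CPM (SD, n = 4), or 6.26 times as much in WT, with a log2 difference of -2.60 (standard error 0.30). All 3 overlapping genes and both sums thus lay lower in each KO library.

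Within the sum, the division between the genes was steadier in WT than in KO libraries. In WT libraries Gm28042 made up 35.4% to 43.1%, Pla2g4b 27.8% to 47.8% and Jmjd7 16.7% to 29.2% of the 3-gene sum. In KO libraries these shares ran from 0% to 51.3%, from 25.1% to 86.5% and from 0% to 55.7%. The KO shares are shares of an estimated 7.41 to 20.6 reads per library, against 70.5 to 134 in WT libraries, so they carry a large counting error. No order of the 3 genes can be read from the KO shares.

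Sptbn5 differed in the other direction. It was at 7.93, 6.51, 9.1, 5.51 and 8.43 CPM in KO replicates 2, 4, 6, 8 and 10. In WT replicates 1, 3, 9 and 11 it was at 4.17, 2.33, 3.94 and 3.11 CPM. The lowest KO library, replicate 8, lay above the highest WT library, replicate 1. KO libraries averaged 7.5 ± 1.46 CPM (SD, n = 5) and WT libraries 3.39 ± 0.839 CPM (SD, n = 4), a ratio of 2.21 of KO to WT, and the log2 difference was 1.14 (standard error 0.21). The reads behind Sptbn5 were an estimated 35.2 to 170 per KO library and 22.5 to 46 per WT library.

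The CPM sum of Jmjd7, Pla2g4b and Sptbn5 overlapped between the groups. Over these 3 genes, KO libraries averaged 8.65 ± 1.4 CPM (SD, n = 5) and WT libraries 9.1 ± 2.08 CPM (SD, n = 4), with a log2 difference of -0.06 (standard error 0.20). With Gm28042 included, the sum of the 4 genes ranged from 7.19 to 10.6 CPM over the KO group and from 9.64 to 16.3 CPM over the WT group. These ranges overlap, and the log2 difference was -0.48 (standard error 0.18). The exon of Sptbn5 that lies within the last exon of Pla2g4b makes up 6.79% of its exonic bases, and how many of its reads came from there was not measured.

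**Figure D2:**
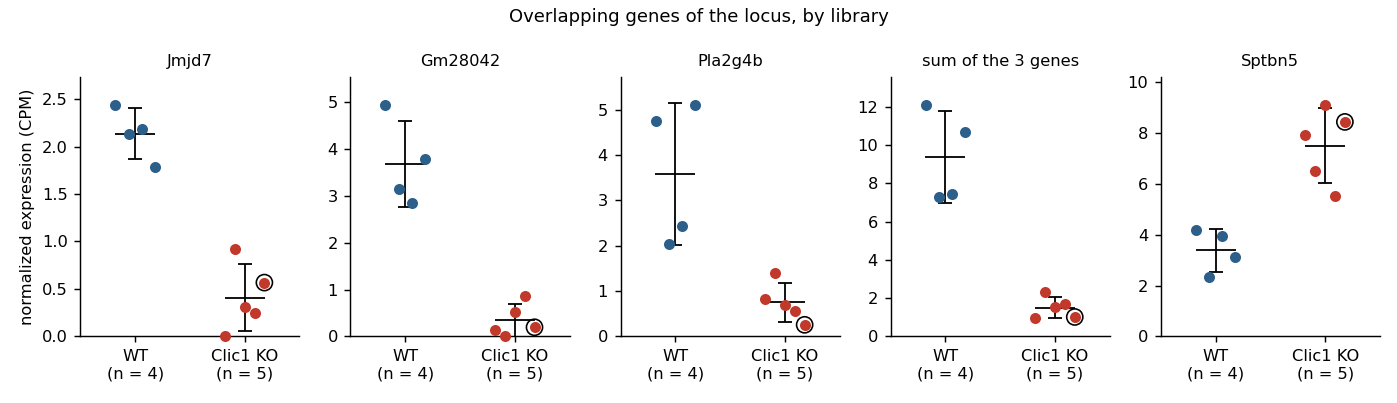
Normalized expression (CPM, linear axis from 0) of Jmjd7, Gm28042, Pla2g4b, their sum and Sptbn5 in each WT (n = 4) and Clic1 KO (n = 5) library; bars are mean ± SD and a ring marks KO replicate 10. No panel has a KO value within the WT range: KO is lower in the first 4 panels and higher for Sptbn5.

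Without KO replicate 10 the log2 differences were -2.68 for Jmjd7, -1.88 for Pla2g4b, 1.09 for Sptbn5 and -3.43 for Gm28042. Over the 9 fits that each left out 1 library, Jmjd7 ranged from -2.83 to -1.99, Pla2g4b from -2.40 to -1.88 and Sptbn5 from 0.97 to 1.24. With replicate 10 counted as WT, as its title says, the log2 difference was -2.33 for Jmjd7, -1.23 for Pla2g4b and 0.82 for Sptbn5. Its own values, 0.567, 0.256 and 8.43 CPM, lay within the range of the other KO libraries for Jmjd7 and Sptbn5 and below it for Pla2g4b.

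The 5 flanking members showed no such separation. Tyro3, on the far upstream side, encodes a receptor tyrosine kinase of the TAM family that binds GAS6 and protein S. It was at 37.2, 38.9, 43.2, 45.5 and 59.9 CPM in KO replicates 2, 4, 6, 8 and 10 and at 38.3, 33.2, 38.7 and 45.5 CPM in WT replicates 1, 3, 9 and 11. KO replicate 10 was the highest library. The log2 difference was 0.20 (standard error 0.14), 0.09 without that library and -0.04 with it counted as WT.

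Mga encodes a MAX-binding transcription factor with a T-box domain, which takes part in a Polycomb complex. KO libraries averaged 268 ± 10 CPM (SD, n = 5) and WT libraries 265 ± 6.97 CPM (SD, n = 4), a log2 difference of 0.02 (standard error 0.05). KO libraries had 261, 270.7, 266, 284 and 258 CPM and WT libraries 261, 272.5, 257 and 269 CPM.

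Mapkbp1, whose product binds JNK kinases, ends 74 bases before Jmjd7. KO libraries had 85.9, 80.4, 89.6, 88.2 and 68.5 CPM and WT libraries 87.7, 84, 73.8 and 87.3 CPM. The lowest library was KO replicate 10, and the log2 difference was -0.02 (standard error 0.09) with it and 0.05 without it. The nearest gene upstream of Jmjd7 therefore had overlapping values in the 2 groups.

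Ehd4 encodes an ATPase that shapes membranes of recycling endosomes, and it is the next gene after Sptbn5 on the minus strand. KO libraries had 20.2, 22.7, 25.1, 22 and 23 CPM and WT libraries 22.2, 20.2, 20.4 and 25.8 CPM, with a log2 difference of 0.03 (standard error 0.10). Tmem87a encodes a membrane protein of the Golgi. KO libraries had 51.3, 57.6, 49.4, 52.8 and 53.4 CPM and WT libraries 55.6, 56.6, 56.1 and 56.7 CPM. KO replicate 4 was the highest of all and the other 4 KO libraries lay below the WT range, with a log2 difference of -0.09 (standard error 0.07).

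**Figure D3:**
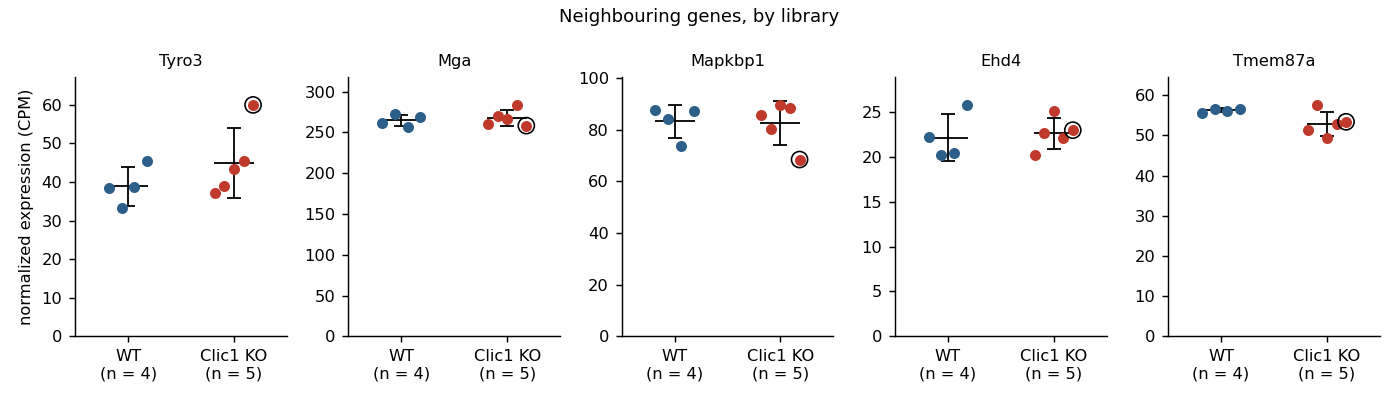
Normalized expression (CPM, linear axis from 0) of the 5 flanking members in each WT (n = 4) and Clic1 KO (n = 5) library; bars are mean ± SD and a ring marks KO replicate 10. The groups overlap in every panel, and KO replicate 10 is the highest Tyro3 and the lowest Mapkbp1 value.

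Set against all genes, KO and WT libraries did not overlap for 3 of the 8 members, 2 of them lower and 1 higher in KO. Over all 14351 genes this held for 3.41%, of which KO was lower in 1.74% and higher in 1.67% of genes. Since the locus was chosen on this contrast, nothing is read from these counts. The median log2 difference was 0.00 over the 8 members and 0.00 over all genes.

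Per kb of exonic sequence, the order of the locus genes differed between the groups. Among WT libraries Mga was highest at 17.3 ± 0.454 CPM per kb (SD, n = 4). Mapkbp1 (10.9 ± 0.851), Tmem87a (7.47 ± 0.07), Tyro3 (6.28 ± 0.814) and Ehd4 (5.52 ± 0.642) followed, and the last pair did not differ beyond the spread. Far lower were Jmjd7 (1.09 ± 0.137), Gm28042 (0.709 ± 0.179) and Pla2g4b (0.614 ± 0.269), of which the last pair also overlapped, and then Sptbn5 (0.29 ± 0.0719). In KO libraries Sptbn5, at 0.643 ± 0.125 CPM per kb (SD, n = 5), stood above Jmjd7 (0.209 ± 0.179), Pla2g4b (0.128 ± 0.0722) and Gm28042 (0.0659 ± 0.0673), whose values overlapped. The 4 overlapping genes were thus the lowest of the locus in both groups. Exonic bases shared by Jmjd7, Gm28042 and Pla2g4b count in full for each gene, while RSEM divides their reads. The places of these genes in the order therefore depend on that division.

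How far such differences reached along the chromosome was asked of the 37 other genes of the table within 1 Mb of the locus. In limma, with p adjusted by Benjamini-Hochberg across the whole table, 1 of the 37 had an adjusted p under 0.05, against 41 of all genes (0.286%). It was Gm28042, which draws on the same reads as Jmjd7 and Pla2g4b, so that its call is not separate from the choice of the locus. Without Gm28042, limma gave an adjusted p under 0.05 for 0 of the 36 genes and an unadjusted p under 0.05 for 8 (22.2%), against 6.5% of all genes. The groups did not overlap for 4 of these 36 genes (11.1%), with 3.41% of all genes as the background, and all 4 were among the 14 genes within 0.5 Mb. The flanking members Tyro3, Mga, Mapkbp1, Ehd4 and Tmem87a also lie within 0.5 Mb. They are not in these counts, and the groups overlapped for each of them, so the shares would be lower with them.

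The 4 genes whose groups did not overlap were Exd1, Pla2g4e, Ganc and Capn3. Exd1, which encodes a protein of the piRNA pathway, has its midpoint at -495.4 kb from the start of Jmjd7. KO libraries averaged 2.89 ± 0.699 CPM (SD, n = 5) and WT libraries 1.31 ± 0.317 CPM (SD, n = 4). Its log2 difference was 1.08 (standard error 0.25, adjusted p = 0.201 from limma). Pla2g4e, another cytosolic phospholipase A2 gene, averaged 49.9 ± 2.55 CPM over KO and 42.1 ± 3.96 CPM over WT libraries, with a log2 difference of 0.25 (adjusted p = 0.556 from limma).

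Ganc encodes neutral alpha-glucosidase C, and its start overlaps that of Tmem87a on the opposite strand, with 209 exonic bases in common. It was at 17.5, 20, 17.8, 17.4 and 14.5 CPM in KO replicates 2, 4, 6, 8 and 10 and at 27.45, 25.3, 20.7 and 29.5 CPM in WT replicates 1, 3, 9 and 11. The highest KO library and the lowest WT library were close, and the log2 difference was -0.55 (standard error 0.12, adjusted p = 0.168 from limma). Capn3, a calpain protease gene whose span overlaps that of Ganc on the same strand, averaged 3.45 ± 0.93 CPM over KO and 4.93 ± 0.229 CPM over WT libraries (log2 difference -0.54, adjusted p = 0.688 from limma). None of these 4 genes passed the threshold. Over the 37 genes the median log2 difference was -0.01, against 0.00 over all genes.

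**Figure D4:**
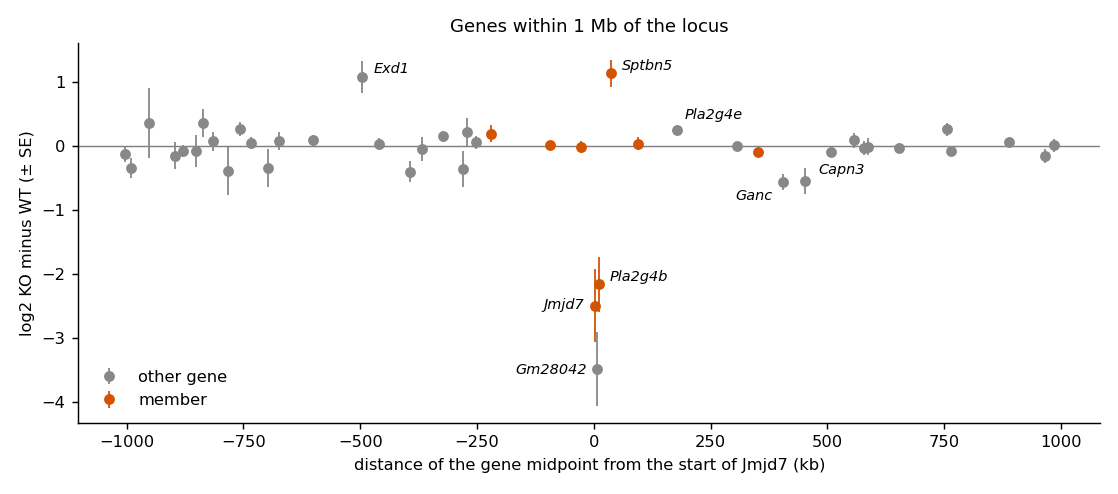
Log2 KO minus WT (± standard error, on the log2(CPM + 0.1) scale) of members and of 37 other genes within 1 Mb, by the distance of the gene midpoint from the start of Jmjd7. Jmjd7, Gm28042 and Pla2g4b lie far below 0 and Sptbn5 and Exd1 above 1, while the genes directly beside them lie near 0.

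Genes related in function to the members were followed in 8 lists of 108 genes, of which 100 were measured. In limma, 0 of the 100 had an adjusted p under 0.05 and 6 an unadjusted p under 0.05, a share near the 6.5% of all genes, and the count with an adjusted p under 0.05 was also 0 in each other setting run. Their median log2 difference was 0.03. KO and WT libraries did not overlap for 6 genes, 3 higher and 3 lower in KO, where 1.67% and 1.74% of all genes did so.

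For Jmjd7, 13 JmjC oxygenase genes and DRG partners were measured, with a median log2 difference of 0.02. Hif1an, the asparagine hydroxylase of HIF, had the smallest p among them, with KO libraries at 41.5 ± 2.87 CPM (SD, n = 5) and WT libraries at 33.6 ± 2.27 CPM (SD, n = 4) (log2 difference 0.30, adjusted p = 0.363 from limma). Jmjd6 followed with 0.14 (adjusted p = 0.8286). For Pla2g4b, 18 of 22 genes of arachidonate release and metabolism were measured, with a median of 0.02. Besides Pla2g4e, Alox12, a lipoxygenase gene, had a log2 difference of -0.56 (adjusted p = 0.771). For Sptbn5, 15 of 16 spectrin, ankyrin and adducin genes had a median of 0.08, and Sptbn4 (0.26, adjusted p = 0.786) and Ank1 (0.09, adjusted p = 0.862) had the smallest p.

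None of the genes related to the flanking members passed the threshold either. Of 6 TAM receptor and ligand genes 4 were measured, with Mertk at a log2 difference of 0.30 (adjusted p = 0.648) and Gas6 at 0.09 (adjusted p = 0.862). Of the 10 genes of EHD-dependent recycling, Rab11fip2 had -0.18 (adjusted p = 0.689) and Pacsin1 0.09 (adjusted p = 0.844). Among 18 measured genes of the MGA and MAX network, Mlx had -0.27 and Rnf2 -0.13 (adjusted p = 0.8286 for both). Among the 12 JNK scaffold and NOD2 genes, Map2k4 had -0.19 (adjusted p = 0.716) and Mapk10 -0.12 (adjusted p = 0.857). Of the 10 Golgi transport genes, Golim4 had 0.24 (adjusted p = 0.755) and Tgoln1 -0.31 (adjusted p = 0.788). All these p-values are from limma, adjusted by Benjamini-Hochberg across the whole table, and a p above the threshold does not show that the groups are alike.

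**Figure D5:**
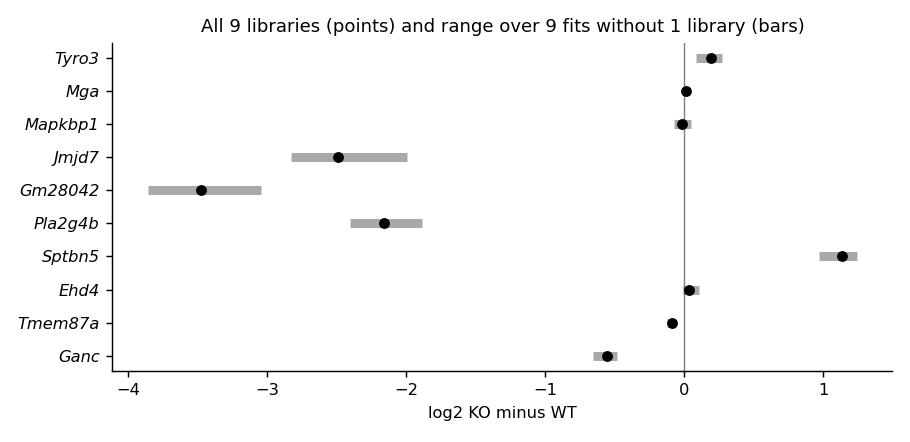
Log2 KO minus WT of the members, Gm28042 and Ganc with all 9 libraries (points) and the range over the 9 fits that each left out 1 library (bars). Jmjd7, Gm28042, Pla2g4b and Ganc stay below 0 and Sptbn5 above 0.9 in each fit, and the ranges of Mga, Mapkbp1 and Ehd4 include 0.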

How the data were processed

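The authors trimmed the reads with Trimmomatic 0.38, aligned them to GRCm38.p6 with STAR 2.5.1a, estimated reads per gene with RSEM 1.3.0 and Ensembl release 98, kept genes with a CPM of at least 1 in at least 5 samples and normalized with TMM (edgeR). The deposited signal is this TMM-normalized CPM. From the authors' comparison table only gene symbols were used, completed from a table of gene names, and not its fold changes and p-values. There was 1 column that matched no sample and was left out. In the 9 libraries used, 101 genes, Jmjd7 and Gm28042 among them, reached 1 CPM in fewer than 5 samples, and how they passed the filter was not tested.

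Values were fitted as log2(CPM + 0.1) with limma 3.58.1 in R 4.3.3 (variance trend, group as sole term), and p was adjusted by Benjamini-Hochberg across 14351 genes. The fit was tested on simulated data. Standard errors of sums came from the spread within groups, with no moderation. In steps of 1 read, 81.3% to 86.6% of the values no higher than 2.5 CPM were whole to within 0.03, so read numbers are estimates. Beyond their replicate numbers, the sources used here do not state that libraries came from separate mice, so p-values measure the spread between these libraries. Genes of the lists and of the window were named when past the threshold, otherwise the 2 per list with the smallest p, besides all members, genes whose exons overlap them, Clic1 and the 3 genes nearest in profile to each of 2 profiles. Exd1 and Capn3 were named from the window, and Ptgds from its list, after their values were seen. The members and the lists were chosen with earlier results of these data known. Exons came from GENCODE release 21 (Ensembl release 96). Alternatives were other pseudocounts, scalings, variance models, a filter, other windows and sums, replicate 10 as WT and leaving out each library.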

Additional observations from a re-analysis of the deposited data

Results flagged for a closer look

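The sum of Jmjd7 and Pla2g4b was 2.32 CPM in KO replicate 4, while the rest of the KO group had 0.818 to 1 CPM, a gap of 0.878 of the range of that group. It was the 1 value this far from its group among 26 groups of values looked at. Chance gives about 1 in 20 groups, so 1 among 26 is about what chance gives. The library had the highest Jmjd7 and the highest Pla2g4b among KO libraries, and no Gm28042. With Gm28042 added, its sum was still 2.32 CPM and the other KO libraries ranged up to 1.68 CPM.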

How the results depend on the processing

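The direction of Jmjd7, Pla2g4b, Sptbn5 and the sum of Jmjd7 and Pla2g4b was kept in every setting that gave a value. A mean of at least 5 CPM left out Jmjd7, Pla2g4b and their sum, and Sptbn5 passed it through its KO libraries. With a pseudocount of 1 the log2 difference was -1.65 for the sum, -1.18 for Jmjd7 and -1.35 for Pla2g4b, as a larger constant shrinks low genes. With replicate 10 grouped as WT it was -1.68 for the sum and -1.23 for Pla2g4b. Summed with Sptbn5, the difference was -0.0582, and with Gm28042 also added, a sum chosen after the data were seen, it was -0.48. The number of all genes past the threshold was 27 with the filter, 135 with sample weights and 5 with replicate 10 as WT, and 18 (without WT replicate 1) to 87 (without KO replicate 10) over the fits that left out a library. Of the 37 genes nearby, 0 passed without Gm28042 (left out after the data were seen), with the filter, without a variance trend, with a pseudocount of 0.01 and with replicate 10 as WT, 2 with sample weights, and 0 to 1 as each library was left out. With replicate 10 as WT, Sptbn4 (-0.0229), Ank1 (-0.0087), Mlx (0.0228) and Mapk10 (0.0328) changed sign, none being past the threshold in either case, and Tyro3 was at -0.04. Of 402 comparisons for 24 tested genes that are no members, 370 kept direction and side of the threshold. The causes were not tested. No paired analysis was possible because the groups share no replicate numbers. Depth limits Jmjd7, Gm28042 and Pla2g4b most, with at most 17.6 and 20.6 estimated reads for the sums of 2 and 3 genes in a KO library.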

Other observations

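Among 14260 genes, those whose log2 profile over the 9 libraries lay nearest to that of the sum of Jmjd7 and Pla2g4b were Arg2, a mitochondrial arginase gene on chromosome 12, Gm14443 on chromosome 2 and Cthrc1 on chromosome 15. Their root mean square distances were 0.64, 0.65 and 0.66 on the log2 scale, against 1.23 for the size of the profile itself. Nearest to Sptbn5, whose profile had a size of 0.63, were Metap1d (0.24) and Avp (0.24), both on chromosome 2, and Il17rc (0.26). Gm14443, Metap1d and Avp all lie more than 1 Mb from the locus, and the share of all genes on chromosome 2 was not measured. Each profile distance is over libraries that share the genotype difference. Avp, the vasopressin gene, averaged 207 ± 27.4 CPM (SD, n = 5) over KO and 111 ± 13.6 CPM (SD, n = 4) over WT libraries. Metap1d, a mitochondrial methionine aminopeptidase gene, averaged 22.3 ± 3.81 CPM over KO and 12.9 ± 2.99 CPM over WT libraries. It did not pass the threshold (adjusted p = 0.124 from limma).

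Ptgds, which encodes prostaglandin D2 synthase, had the largest log2 difference of the arachidonate list, 1.28 (standard error 0.75, adjusted p = 0.825 from limma), and is named after its values were seen. It ranged from 91.8 to 933 CPM over the KO group and from 61.95 to 506 CPM over the WT group, so the spread within each group was wider than the difference between them.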
